A study of Mus musculus with 4 samples.

Results

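The cytosolic ribosomal protein genes encode the proteins of the large (Rpl) and small (Rps) subunits of the ribosome that translates nuclear-encoded mRNA. Members were the protein-coding mouse genes with symbols made of Rpl or Rps, a number and at most 1 letter, together with Rplp0, Rplp1, Rplp2 and Rpsa, without pseudogenes, retrocopies, Rps6 kinases and genes with the suffix l. By this rule 76 of the 16403 genes listed in the study were members, 46 of the large and 30 of the small subunit, and all 76 were listed in every library. The proteins encoded by Fau, Rack1 and Rps3a1 also belong to the cytosolic ribosome, but their symbols do not have this form, and they are given separately.

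The study sequenced total RNA of mouse peritoneal macrophages drawn to the peritoneum by 4% thioglycolate in C57BL/6 mice, aged 6 to 8 weeks by the study's methods. After 4 h of adhesion and starvation in 0.5% serum, the cells were left untreated or given IL-4, the cytokine of alternative macrophage activation, at 20 ng/mL for 6 h. The 4 groups were wild-type untreated, wild-type with IL-4, TIF1a-KO untreated and TIF1a-KO with IL-4. TIF1a is the protein of Trim24, and the knockout mice carried floxed Trim24 alleles and a LysM-Cre transgene, which deletes in myeloid cells. What the wild-type mice carried of the floxed alleles or the transgene is not given in the sources used here. Each group held 1 library, so no difference had a replicate check, and each test on reads compared libraries and not conditions.

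Ribosomal proteins are made in near-equal numbers and each ribosome holds most of them once, so their genes are known for high and parallel expression in nearly every cell type. Their mRNAs are short and typically begin with an oligopyrimidine run, the TOP motif, through which mTOR and the RNA-binding protein Larp1 govern their translation. RNA levels such as those measured here carry no information on that step. Ribosomal protein genes also have many processed pseudogenes, and many of their introns hold small nucleolar RNAs (snoRNAs).

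The library totals ran from 11026033 to 11250099 expected counts, which are the reads that RSEM assigned to genes, and 14717 to 14923 genes were listed in each. Trim24 was listed at 2.55, 1.48, 0.06 and 0.14 FPKM (fragments per kilobase of transcript, scaled to the library total) in the wild-type untreated and IL-4 libraries and the knockout untreated and IL-4 libraries. All 8 macrophage markers were listed, and their sum was 14906, 14769, 8955 and 8320 FPKM in the same order. Most of it was Lyz2, the lysozyme gene whose locus drives LysM-Cre, at 11289, 10811, 5193 and 4761 FPKM, and the other 7 summed to 3617, 3957, 3762 and 3559 FPKM. Between genotypes the 8 markers had a median of 0.07 on the log2 scale both without and with IL-4, with 5 of 8 higher in the knockout each time. Of the other cell types, 5 of 6 B cell markers summed to 4.23 to 6.52 FPKM and 6 of 6 T cell markers to 3.42 to 3.85 FPKM. The 2 of 6 neutrophil markers that were listed summed to 6.96 to 11.5 FPKM, with S100a9, Ly6g, Retnlg and Ngp not listed. The 6 of 7 eosinophil and mast cell markers listed summed to 3.11 to 8.03 FPKM, and 8 of 8 mesothelial and fibroblast markers to 43.2, 38.3, 22.5 and 42.5 FPKM. The part of other cell types in the results on ribosomal protein genes was not tested.

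The sequences around the annotated start sites were searched for pyrimidine runs, the feature these genes are known for. The windows of 30 bases run from 15 bases before to 15 after the start, in the direction of transcription, from RefSeq (GRCm38.p6). Capitals mark the longest run of at least 5 C or T letters that holds a C and overlaps the 10 bases either side of the start. A marked run need not begin at the annotated start, and that of Rps15a lies wholly before it. The first 8 windows belong to members whose values are described here and hold such a run, and the windows of Rpl41 and Rps28 hold none.
Rps6 (chr4:86857353-86857382, minus strand): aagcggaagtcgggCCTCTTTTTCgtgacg
Rps27 (chr3:90213634-90213663, minus strand): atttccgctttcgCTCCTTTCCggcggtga
Rps18 (chr17:33955651-33955680, minus strand): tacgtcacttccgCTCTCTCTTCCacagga
Rpl35 (chr2:39005117-39005146, minus strand): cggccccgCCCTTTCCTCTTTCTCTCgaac
Rpl15 (chr14:18270972-18271001, minus strand): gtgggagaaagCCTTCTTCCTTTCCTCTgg
Rpl14 (chr9:120571502-120571531, plus strand): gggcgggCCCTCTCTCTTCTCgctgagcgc
Rplp2 (chr7:141447636-141447665, plus strand): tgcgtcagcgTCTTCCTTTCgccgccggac
Rps15a (chr7:118116133-118116162, minus strand): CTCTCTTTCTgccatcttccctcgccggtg
Rpl41 (chr10:128549154-128549183, minus strand): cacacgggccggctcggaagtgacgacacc
Rps28 (chr17:33824548-33824577, minus strand): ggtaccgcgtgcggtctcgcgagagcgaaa

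The promoter table held 66 annotated starts of 56 members. A pyrimidine run as defined above was found at 45 of the 66 starts (68.2%), against 44.3% of all 32851 starts. Within 25 bases of the start, read in the direction of transcription, CTTTCC or CTTTTC occurred at 14 member starts (21.2%) against 4.13% of all starts. These letters can lie inside such a run. On either strand of the 300 bases around the start, CCGGAAG, the letters of an ETS factor core, occurred at 24 member starts (36.4%) against 8.86%. AAGATGG, the core letters of YY1 sites, occurred at 16.7% against 6.34%, and TATAAA at 9.09% against 13.6%. These are matches of letters, and an annotated start can lie some bases from the start used in these cells.

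The members shared other features that the rule did not use. They lay on 19 chromosomes, with 14 on chromosome 7. Their mean transcript length, as deposited, had a median of 718 bases, and 4.20% of the 10532 genes whose mean reached 1 FPKM were shorter than that. The median of all these genes was 2716 bases. A snoRNA gene lay inside 29 of 76 members (38.2%), against 254 of 10070 protein-coding genes with at least 1 FPKM (2.52%). Rpl4 held 5 snoRNA genes, and Rpl13a held Snord32a, Snord33, Snord34 and Snord35a.

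Members were among the most abundant mRNAs of the macrophages. They took 3.22% of reads in the untreated wild-type library (95% Wilson interval, 3.21 to 3.23) and 3.61% in the wild-type IL-4 library (3.60 to 3.62). In the knockout they took 3.09% without IL-4 (3.08 to 3.10) and 3.11% with IL-4 (3.10 to 3.12). The wild-type IL-4 share was thus the highest and lay outside the counting intervals of the other 3 libraries, while the knockout shares with and without IL-4 had intervals side by side. These intervals cover counting error alone, since reads without molecular identifiers are not independent molecules, and in bulk RNA fewer cells and less RNA per cell cannot be told apart. The large subunit took 2.05%, 2.29%, 1.97% and 1.98% of reads and the small subunit 1.17%, 1.32%, 1.12% and 1.13%, in the order of libraries given for Trim24, which is kept below. Per length, members held 8.85%, 9.60%, 8.66% and 8.79% of summed FPKM.

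Levels within the family spanned a wide range, although the proteins are needed in near-equal numbers. The mean FPKM over the 4 libraries had a median of 584, it was at least 100 in 73 members, and 47 members lay between 400 and 1100. The highest was Rpl41, the smallest ribosomal protein, which bridges the subunits, at 1414, 1475, 1444 and 1295 FPKM. Next came Rpl23a, at the mouth of the exit tunnel of the nascent chain, at 1293, 1391, 1292 and 1211 FPKM. Rpl35, another protein of the tunnel exit, was at 1140, 1230, 1116 and 1110 FPKM. Rps15, close to the decoding site, and Rpl10, which joins the large subunit last, completed the 5 highest by the mean over the 4 libraries. Rps15 was at 1174, 1249, 1049 and 1066 FPKM. Rpl10, one of 4 members on the X chromosome, was at 1092, 1209, 1098 and 1061 FPKM. Rpl41 was above Rpl23a, and Rpl23a above the other 3, in each of the 4 libraries. Rps15, Rpl35 and Rpl10 changed places between libraries. Single libraries also had other members among the 5 highest, Rpl19 with IL-4 in the wild-type and Rps12 in the untreated knockout.

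**Figure D1:**
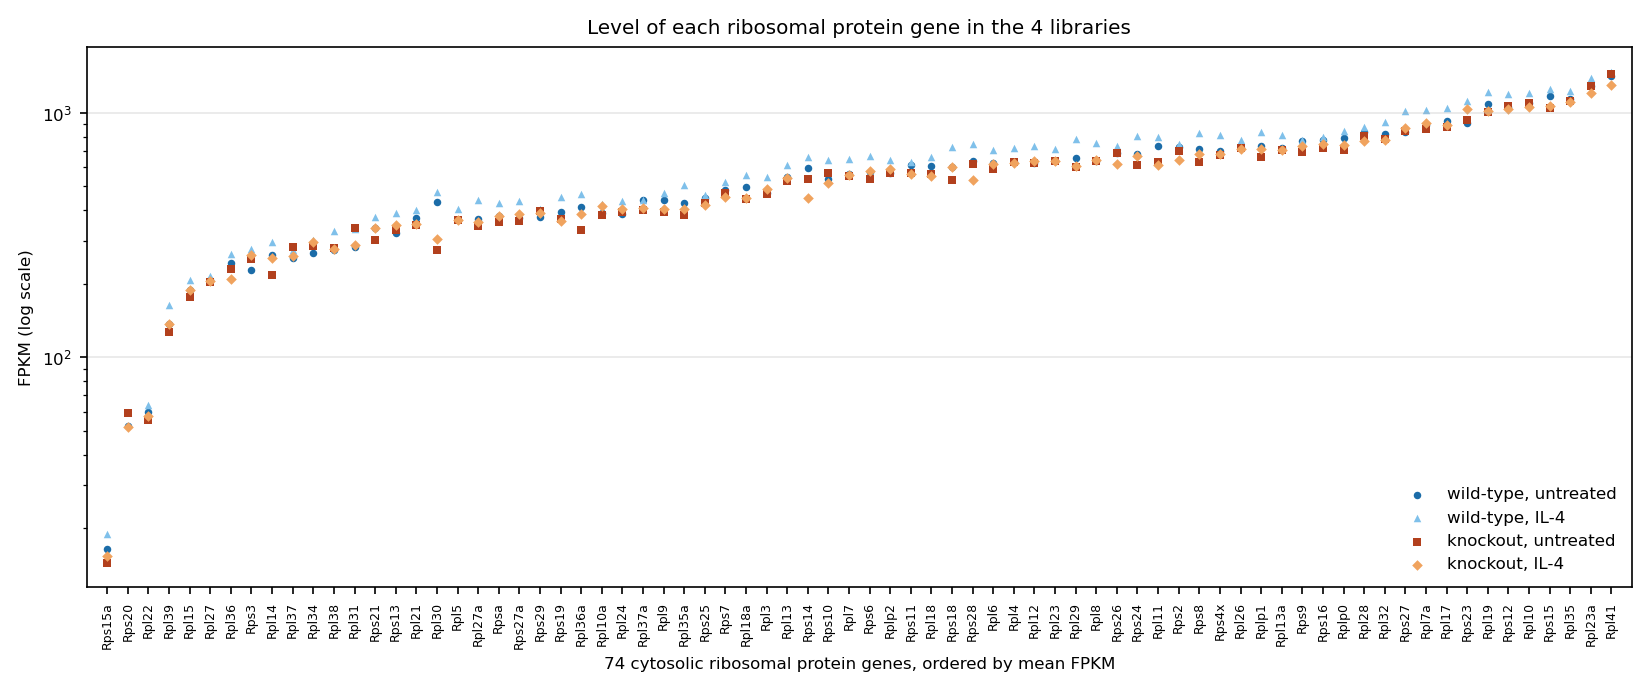
FPKM on a log scale of 74 of the 76 ribosomal protein genes, ordered by mean FPKM, with 1 point for each of the 4 libraries. The wild-type IL-4 point (triangle) is the highest in 71 of these 74 genes, and Rps15a, Rps20 and Rpl22 stand below 100 FPKM.

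The lowest member was Rps15a at 16.4, 19.0, 14.4 and 15.5 FPKM, then Rps20 at 52.4, 60.0, 59.1 and 51.7 FPKM. Both carried the longest deposited lengths of the family, 5158 bases for Rps15a and 3446 for Rps20. GENCODE M21 lists 6 coding transcripts of Rps15a, the shortest of 250 bases, so the length by which its FPKM was divided bears directly on its level. By reads alone Rps15a had 946, 1116, 830 and 888 expected counts. Rpl22, which ribosomes can do without, was at 60.0, 64.0, 55.4 and 57.3 FPKM with a length of 2203 bases. Rpl39, at 137, 163, 127 and 137 FPKM, and Rpl15, at 188, 208, 177 and 189 FPKM, followed. Over the 76 members, Spearman's rho of length and mean FPKM was -0.24, as a description, since length enters the FPKM itself.

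To ask whether IL-4 moved the family in wild-type macrophages, the log2 ratio of FPKM + 0.1 was taken between the wild-type libraries. The ratio was above 0 in 75 of 76 members, against 48.9% of all genes of at least 1 FPKM. Its 95% counting interval lay above 0 in 68 members and below 0 in none. Here and below, no share of all genes is given for such intervals, which are narrow at the high counts of members. The member median was 0.17, the quartiles were 0.11 and 0.22, and the range was -0.01 to 0.30. Over the 10532 genes of at least 1 FPKM the median was -0.01, and 69.9% of them lay below the member median. A gene was called when its fold passed 1.5 and its adjusted p was under 0.05 (two-sided Fisher's exact test, Benjamini-Hochberg adjustment over all genes with a read). No member was called, against 12.8% of 15593 genes. In the wild-type IL-4 library 73 members had their highest level, against 31.0% of all genes of at least 1 FPKM. Transcript length moved with these ratios, and with its trend over all genes removed the member median was 0.03 and 51 of 76 were above 0.

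The highest ratio was that of Rps23, a protein of the decoding centre, at 909, 1120, 935 and 1041 FPKM. Its log2 ratio with IL-4 was 0.30 ± 0.03 (counting SE; adjusted p = 1.9e-29, Fisher's exact test, two-sided), so that both IL-4 libraries were above both untreated ones. Rps27, a zinc-binding protein of the small subunit, was at 833, 1021, 842 and 864 FPKM, with a ratio of 0.29 ± 0.03 in the wild-type libraries. Rps3, which lines the mRNA entry channel, was at 227, 276, 251 and 262 FPKM, also with a ratio of 0.29 ± 0.03. For Rps27 the wild-type IL-4 library stood above the other 3, which lay close together, and for Rps3 the untreated wild-type library was the lowest. The lowest ratios were those of Rpl37a (-0.01 ± 0.04), Rps9 (0.01 ± 0.03) and Rps16 (0.03 ± 0.03). Rps9, at the mRNA entry side, was at 769, 772, 695 and 731 FPKM, and Rpl37a, a zinc-binding protein, at 441, 438, 400 and 409 FPKM. In both, the 2 wild-type libraries lay above the 2 knockout libraries. At a fold above 1.2, 5 members were called higher (11.4% of all genes), namely Rps23, Rps27, Rps3 and Rps18 and, named after its values were seen, Rps13.

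In knockout macrophages the same comparison gave no common direction. With IL-4, 46 members had a ratio above 0 and 30 below, with counting intervals above 0 in 21 and below 0 in 16. Of all genes of at least 1 FPKM, 51.1% had a ratio above 0. The member median was 0.02 and became -0.0048 with upper-quartile scaling, and the median of all genes was 0.01. No member was called, against 9.32% of 15738 genes. The range was -0.27 to 0.23 and the SD over members 0.0997, against a median counting SE of 0.032.

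The highest ratio in the knockout belonged to Rpl14, a large subunit protein, at 263, 296, 217 and 255 FPKM, with 0.23 ± 0.04. Rpl36a, a protein near the exit site of tRNA, was at 411, 467, 332 and 386 FPKM, with 0.22 ± 0.05. Rps18, in the head of the small subunit, was at 600, 726, 529 and 601 FPKM, with 0.18 ± 0.04. Each of the 3 was higher with IL-4 than without in both genotypes and lowest in the untreated knockout library. The lowest was Rps14 (platform of the small subunit, gene lost in the 5q- syndrome of humans), at 592, 662, 537 and 446 FPKM, with -0.27 ± 0.04. Rpl31, at the tunnel exit, was at 282, 335, 339 and 288 FPKM, with -0.23 ± 0.03. Rps28, by the mRNA exit channel, was at 634, 744, 616 and 533 FPKM, with -0.21 ± 0.05. These 3 had ratios above 0 with IL-4 in the wild-type and below 0 in the knockout. At a fold above 1.2, Rps14 was the 1 member called in the knockout pair, where 9.18% of all genes were called lower.

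**Figure D2:**
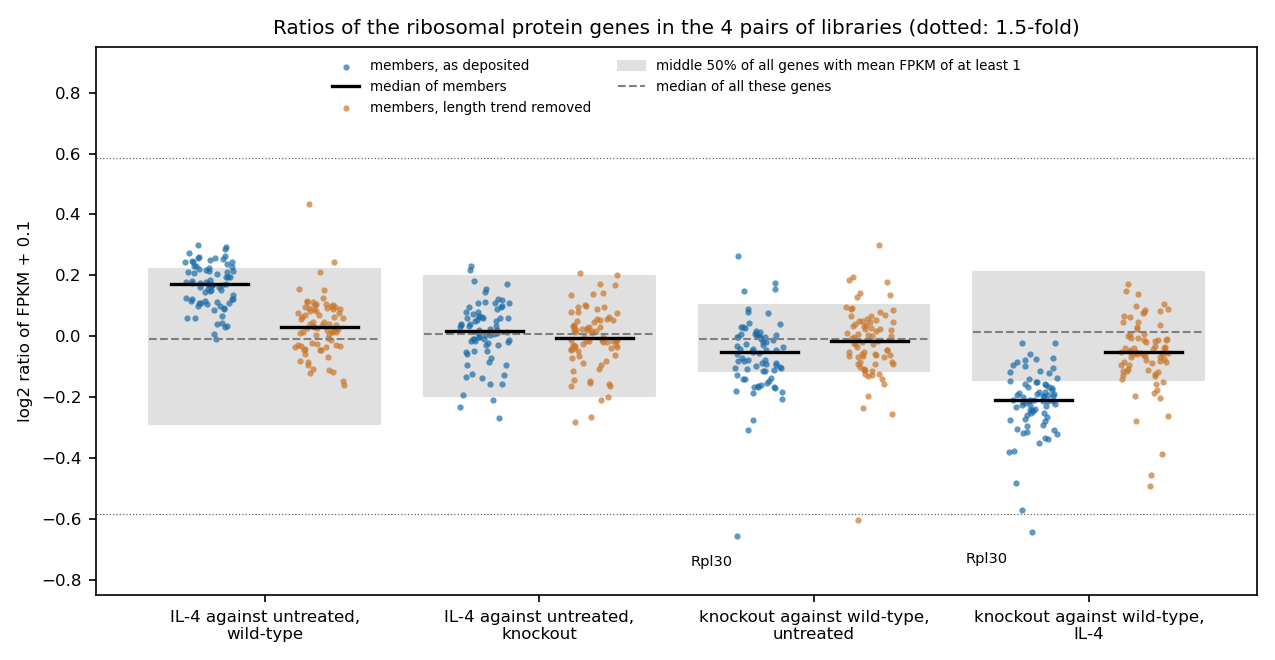
Log2 ratios of FPKM + 0.1 for the 76 members in the 4 pairs of libraries, as deposited (blue) and with the trend over transcript length removed (orange), with the median of members (black) and the median and middle 50% of all genes of at least 1 FPKM (grey). The member medians as deposited were 0.17, 0.02, -0.05 and -0.21, and with the trend removed 0.03, -0.01, -0.01 and -0.05.

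The genotypes were then compared within each treatment. Without IL-4, 56 members were lower and 20 higher in the knockout, with a median ratio of -0.05 (median of all genes, -0.01), 37 counting intervals below 0 and 5 above. With IL-4 all 76 members were lower in the knockout, 72 of them with a counting interval below 0, and the median was -0.21 against 0.01 for all genes, of which 17.0% lay below the member median. The range with IL-4 was -0.64 to -0.02. With the length trend removed the IL-4 median was -0.05, and 20 of 76 members were above 0. One member, Rpl30, was called at 1.5-fold in each pair, against 1.58% of 15623 genes without IL-4 (0.742% called lower) and 3.81% of 15573 with IL-4 (0.764% lower). At 1.2-fold, 3 members were called lower without IL-4 (1.53% of all genes) and 19 with IL-4 (3.84%).

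Rpl30 (gene ID 19946, chr15:34440505-34443276), which contacts the small subunit at the subunit interface, was at 432, 475, 274 and 304 FPKM. Both wild-type libraries were above both knockout libraries. For genotype, the ratio of the untreated libraries was -0.66 ± 0.05 on the log2 scale (adjusted p = 2.2e-42, Fisher's exact test, two-sided). In the IL-4 libraries it was -0.64 ± 0.04 (adjusted p = 1.8e-46, same test). With the length trend removed it was -0.60 and -0.46, the second under the 1.5-fold threshold.

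Rpl30 has a nearly identical listed copy, the transcribed pseudogene Gm12191 (chr11:49678620-49679143), and the 2 moved in opposite directions. Gm12191 was at 113, 134, 247 and 258 FPKM, so that it was higher in both knockout libraries, with log2 ratios of 1.14 and 0.95 (Fisher's exact test, two-sided, adjusted p = 8.0e-61 and adjusted p = 2.0e-47). Of the 348 bases of the GENCODE M21 transcript of Gm12191, 347 were identical to Rpl30, whose own transcript has 570 bases. The single difference was G273A, with the base of Rpl30 first and positions counted from 1 at the 5' end of its transcript. The pair of 30-base windows around it, from position 258 to 287 in the coding sequence, is shown with the difference in capitals.
Rpl30: cgtgctgggctacaaGcagactctgaagat
Gm12191: cgtgctgggctacaaAcagactctgaagat

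Of the 50-base stretches of the Rpl30 transcript, 47.8% also occurred in another listed gene. Rpl30 had 2428, 2727, 1543 and 1710 expected counts, none of them whole, which is how RSEM reports reads it divided between genes. Added together, Rpl30 and Gm12191 had 3044, 3474, 2897 and 3119 reads. The copy held 20.3%, 21.5%, 46.7% and 45.2% of this sum. The log2 ratio of the sum, scaled by library total, was -0.07 ± 0.04 in the untreated pair and -0.13 ± 0.04 in the IL-4 pair, and the sum was not called in either pair. The ratio of the sum lay within the range of the other members, and the call on Rpl30 held only for reads as divided in the deposited counts.

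**Figure D3:**
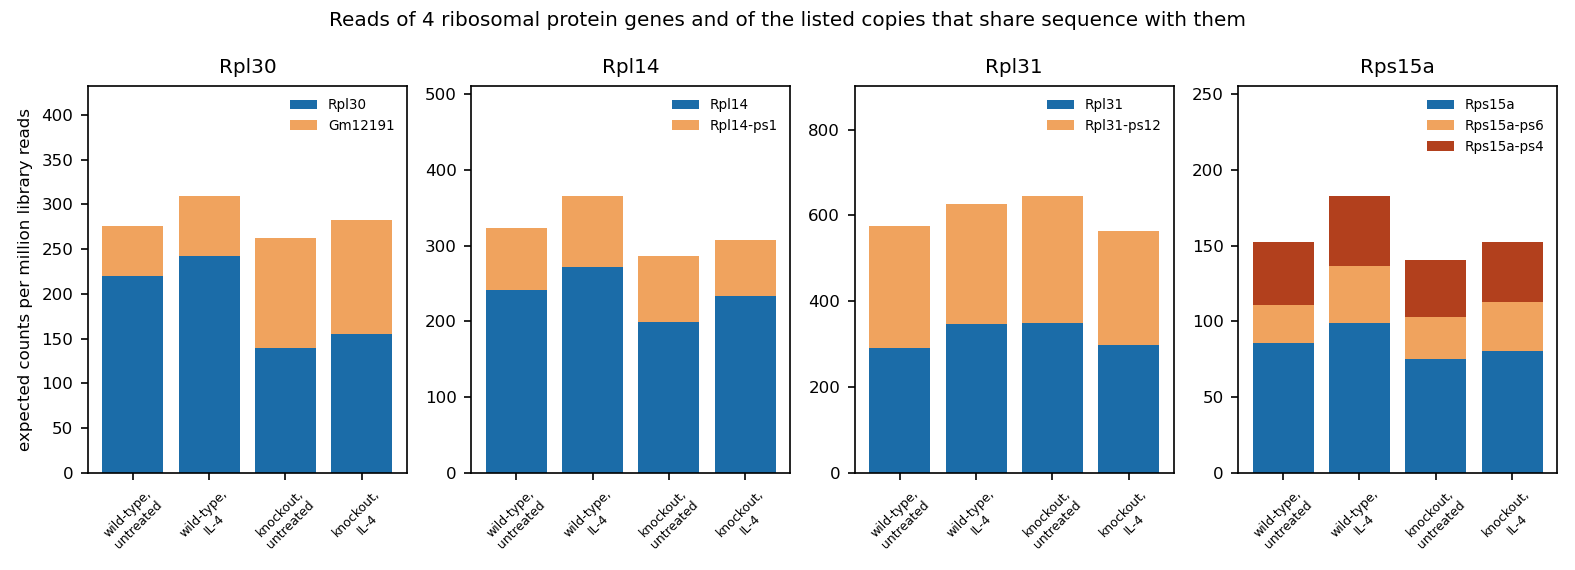
Expected counts, scaled to the library total, of Rpl30, Rpl14, Rpl31 and Rps15a (blue) with those of the listed copies that share at least 100 of their 50-base stretches stacked on top (orange and red), in the 4 libraries. For Rpl30 the copy's share was 20.3% and 21.5% in the wild-type and 46.7% and 45.2% in the knockout, while the height of the whole bar changed by log2 -0.07 and -0.13.

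In all, 12 members shared at least 100 of their 50-base stretches with a listed copy. For Rpl31, the protein-coding copy Rpl31-ps12 (98.9% identity over 375 bases) held 44.9% to 49.2% of the summed reads. The summed log2 ratios of Rpl31 were 0.13 and -0.19 for IL-4 in wild-type and knockout, and 0.17 and -0.16 for genotype without and with IL-4, with the same signs as for the gene alone. For Rps15a the copies Rps15a-ps4 and Rps15a-ps6 held 43.8% to 47.1%. For Rpl14 the copy Rpl14-ps1 held 24.1% to 30.6%, and its summed ratio was 0.10 for IL-4 in the knockout, against 0.23 for Rpl14 alone. Rpl37rt, a retrocopy of Rpl37, held at most 4.05% of their sum and was at 4.67, 15.01 and 7.05 FPKM in the first, second and last library, and not listed in the untreated knockout. In the other 7 pairs the share of the copy was under 10% in every library. Among the members, 54 had whole expected counts in all 4 libraries (within 0.005). Whole counts do not show that reads matched a single gene. Over all GENCODE M21 genes, listed or not, other genes held 92.1% of the 50-base stretches of Rpl10 and 82.6% of Rpl23a. For Rpl41, Rpl35 and Rps15 it was 53.1%, 40.1% and 39.0%, and for Rps27 98.6%. All of these had whole counts and shared no stretch with a listed gene. How far such sequence moved their values was not tested.

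Rps14 (chromosome 18) was the second lowest member with IL-4, at a log2 ratio of -0.57 ± 0.03 of knockout to wild-type, close to but not past 1.5-fold. Its expected counts were whole, although 38.1% of its 50-base stretches also occurred in genes that are not listed. Its ratio without IL-4 was -0.14 ± 0.03, and with the length trend removed the IL-4 ratio was -0.39. Rps28 had a ratio of -0.48 ± 0.05 with IL-4 and -0.04 ± 0.05 without. For both genes the knockout IL-4 library was the lowest of the 4. The smallest ratios with IL-4 were those of Rpl34 and Rpl10a (both -0.02) and Rps29 (-0.06), each with a 95% counting interval that held 0. Without IL-4 the lowest after Rpl30 were Rpl36a (-0.31 ± 0.05) and Rpl14 (-0.28 ± 0.04), both also called at 1.2-fold. Summed with Rpl14-ps1, the ratio of Rpl14 in this pair was -0.17, under 1.2-fold. The highest were Rpl31 (0.26 ± 0.03), Rps20 (0.17 ± 0.04) and Rpl37 (0.16 ± 0.04).

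Groups of members by place and role in the ribosome held few members each, and their ratios are given as values. The stalk proteins Rplp0, Rplp1 and Rplp2, which bind elongation factors, had ratios of 0.10, 0.19 and 0.17 with IL-4 in the wild-type. Rpl5 and Rpl11, which bind 5S rRNA and, when free, the p53 regulator Mdm2, had ratios of 0.15 and 0.12. For genotype with IL-4 they had -0.15 and -0.38. Rps6, the substrate of S6 kinase, was at 571, 667, 534 and 578 FPKM. Rpsa, also known as the laminin receptor, was at 379, 429, 357 and 378 FPKM. Rps4x, an X-linked member, was at 699, 812, 675 and 681 FPKM, and Rps27a, made as a fusion with ubiquitin, at 373, 435, 362 and 387 FPKM. All 4 were highest with IL-4 in the wild-type and lowest in the untreated knockout. The 10 members whose human orthologues are mutated in Diamond-Blackfan anaemia had medians of 0.18, -0.04, -0.02 and -0.29 in the 4 pairs, in the order IL-4 in wild-type, IL-4 in knockout, genotype untreated and genotype with IL-4. The 5 members along the mRNA channel, which include Rps14 and Rps28, had 0.16, -0.16, -0.04 and -0.24. The large subunit had medians of 0.17, 0.02, -0.05 and -0.20, and the small subunit 0.21, 0.02, -0.05 and -0.22.

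Transcript length moved with these ratios over all genes. Over the 10532 genes Spearman's rho of length and log2 ratio was -0.36 for IL-4 in the wild-type, -0.10 for IL-4 in the knockout, 0.12 for genotype without IL-4 and 0.51 for genotype with IL-4. The eighth with the shortest transcripts, up to 1186 bases, held 62 of the 76 members. In that eighth the 1317 genes had median ratios of 0.16, 0.02, -0.04 and -0.17. The 62 members among them had 0.17, 0.01, -0.05 and -0.22, and the other 1255 genes 0.16, 0.02, -0.04 and -0.17. The eighth with the longest transcripts held no member and had medians of -0.36, -0.10, 0.04 and 0.34. Within the family itself rho of length and ratio was 0.03, 0.11, -0.05 and 0.12 (76 members).

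With a smooth trend over length removed, the member medians were 0.03, -0.01, -0.01 and -0.05, and 51, 37, 34 and 20 of 76 members lay above 0. Rps14 in the IL-4 genotype pair had -0.57 as deposited and -0.39 with the trend removed. Rps15a and Rps20, whose deposited lengths exceed those of all other members, lay off the curve. Rps15a had a ratio of 0.21 with IL-4 in the wild-type as deposited and 0.44 with the trend of long transcripts removed. What made long and short transcripts differ between libraries was not tested.

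**Figure D4:**
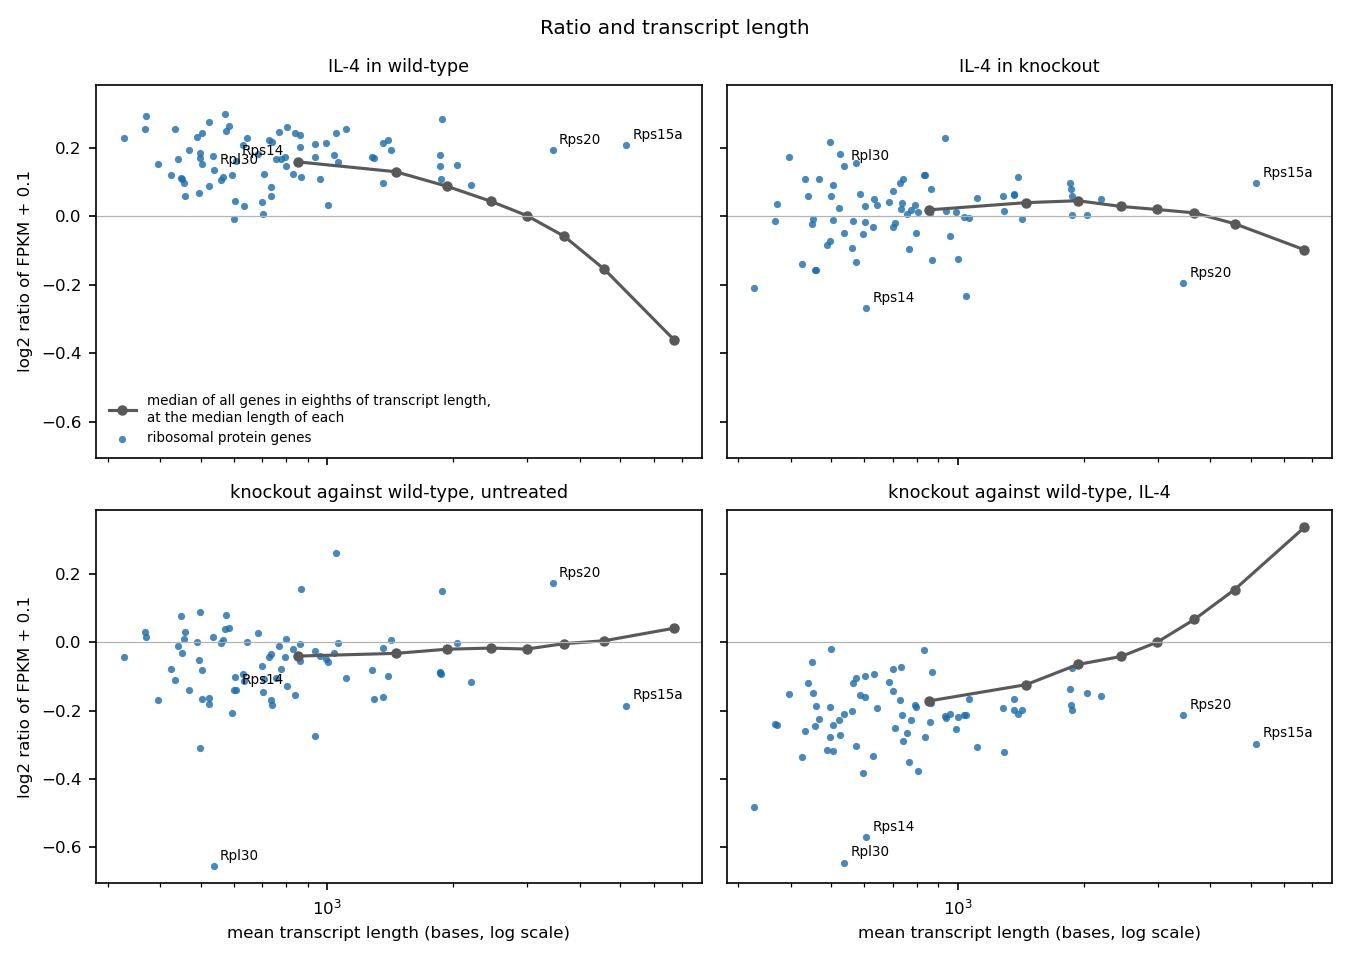
Log2 ratio of FPKM + 0.1 against mean transcript length (log scale) in the 4 pairs, for the 76 members (blue) and as the median of all genes of at least 1 FPKM in eighths of length (grey line). The shortest eighth had medians of 0.16, 0.02, -0.04 and -0.17 and the longest -0.36, -0.10, 0.04 and 0.34, and most members lay around the short end of the line.

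The pairs that share no library were set against each other across members. For the IL-4 ratios of the genotypes Pearson's r was 0.19 and Spearman's rho 0.26 over 76 members, which share libraries, depth and length. The genotype ratios without and with IL-4 had r of 0.52 and rho of 0.40, and r was 0.35 without Rpl30. These are descriptions across genes, which are not independent replicates.

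**Figure D5:**
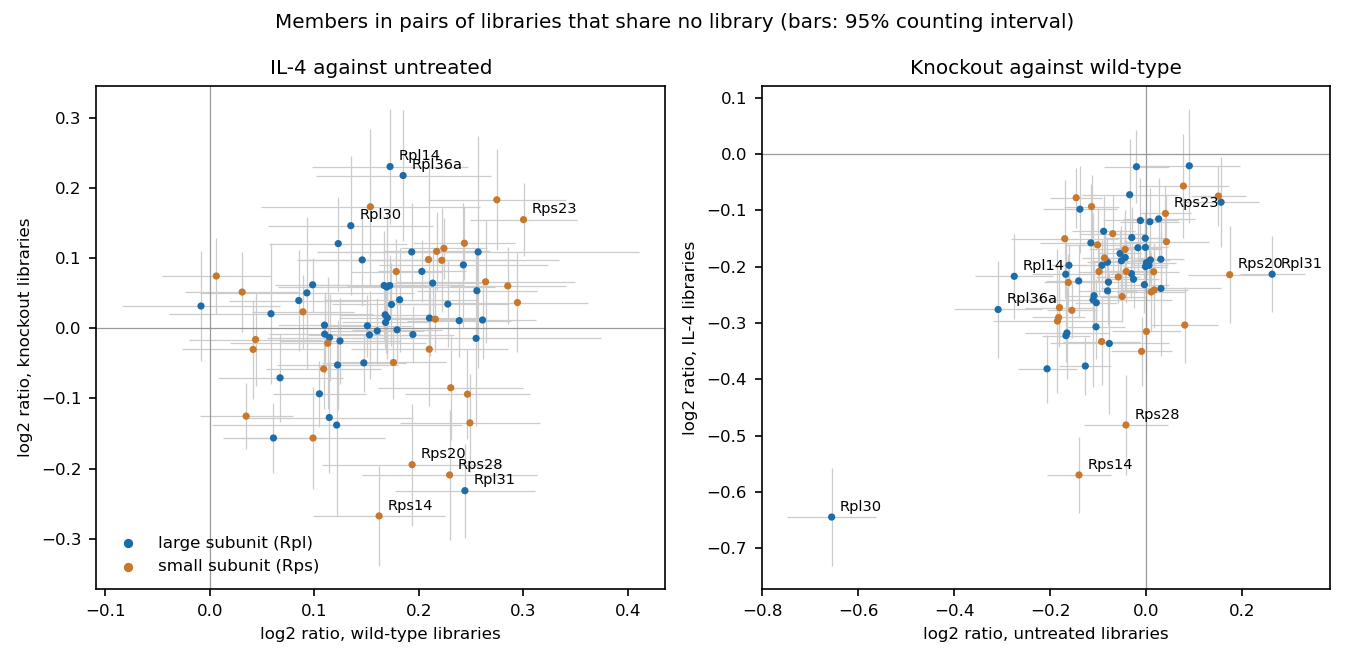
Log2 ratios of the 76 members in pairs that share no library, with IL-4 against untreated in wild-type and knockout (left) and knockout against wild-type without and with IL-4 (right); bars are 95% counting intervals and colours mark the subunits. Rpl30 stands apart on the right at -0.66 and -0.64, and Rps14, Rps28, Rpl31 and Rps20 lie low on the left, above 0 in the wild-type and below 0 in the knockout.

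A model with additive terms for genotype and IL-4 was fitted over all 4 libraries (edgeR quasi-likelihood test, 1 residual degree of freedom, 11791 genes). This fit treats libraries that differ in the other factor as repeats, so its p-values hold only where both effects add. The member median for IL-4 was 0.17 between wild-type libraries and 0.02 between knockout libraries. The knockout ratio was the lower one for 69 of 76 members. The median difference was -0.15, and -0.03 with the length trend removed. Whether the effects add was not tested, because each group held 1 library. For IL-4, 0 of 76 members and 25.3% of all genes passed an adjusted p of 0.05. At an unadjusted p under 0.05 there were 5 members, namely Rps18, Rps23, Rpl14, Rpl36a and, named after its values were seen, Rps24, against 4302 of the 11791 genes (36.5%). DESeq2 called 1 member (Rps23) against 1656 of 12245 genes, and limma 0 against 2359 of 10532. For the knockout 1 member passed, against 1.66% of all genes. This was Rpl30, with a log2 fold change of -0.65 (edgeR, adjusted p = 0.0012). DESeq2 and limma called the same 1, against 128 of 12245 and 92 of 10532 genes. At an unadjusted p under 0.05 there were 17 of 76 members and 1680 genes in all (14.2%). With the length trend as an offset in the same fit there were 10 of 76 members, against 15.5% of all genes. Summed with Gm12191, Rpl30 was not called in either pair of libraries.

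Ribosomal proteins under other names lay in the range of the members. Rps3a1, a small subunit protein, was at 694, 776, 692 and 685 FPKM, highest with IL-4 in the wild-type. Rack1, a signalling scaffold on the small subunit, was at 459, 523, 419 and 440 FPKM. Fau, made as a fusion with a ubiquitin-like protein, was at 851, 984, 859 and 844 FPKM. Of the 10 close paralogs, 8 were listed and 6 reached a mean of 1 FPKM. With IL-4 in the wild-type 2 of the 8, Rps27l and Rpl37rt, were called higher, against 4.91% of all genes. Rpl37rt was also called higher with IL-4 in the knockout, against 5.29%. For genotype it was called lower without and with IL-4, against 0.742% and 0.764%. Rps27l, a p53-inducible relative of Rps27, was at 50.2, 75.9, 53.5 and 64.3 FPKM, with a log2 ratio of 0.60 ± 0.11 with IL-4 in the wild-type that passed 1.5-fold, and 0.45 with the length trend removed. The heart and muscle form Rpl3l had at most 4 reads in a library.

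Other genes of translation were read beside the family. None of the 19 translation factors was called in any pair, against 12.8%, 9.32%, 1.58% and 3.81% of all genes. Their medians were 0.16, -0.00014, -0.03 and -0.17, and 0.05, -0.03, -0.01 and -0.07 with the length trend removed. Eef1a1, the elongation factor with a TOP mRNA of its own, was at 4753, 5072, 4685 and 4510 FPKM. The 78 mitochondrial ribosomal protein genes had medians of 0.24, 0.08, -0.07 and -0.24, and 0.14, 0.05, -0.04 and -0.09 with the length trend removed. Among them 3 of 78, Mrps31, Mrps28 and Mrps15, were called higher with IL-4 in the wild-type, against 4.91% of all genes. In the knockout 1 of 78, Mrps28, was called higher, against 5.29%.

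Genes for making ribosomes had IL-4 medians that stayed near their values when the length trend was removed. Their median length was 2857 bases. In the eighth of all genes from 2718 to 3309 bases, IL-4 ratios had medians of 0.0024 (wild-type) and 0.02 (knockout). At such a length the trend was near 0, so its removal could change these medians little and was no check on them. The 30 biogenesis genes had a median of 0.24 with IL-4 in wild-type macrophages and 0.21 in knockout ones, with 25 and 27 of 30 above 0, and 0.27 and 0.19 with the trend removed. In the wild-type 5 rose past the threshold, namely Nop56, Nop58, Gar1, Rrp9 and Tsr1, against 4.91% of all genes called higher, and in the knockout 0 of 30, against 5.29%. Nop56, a core protein of box C/D snoRNA particles, was at 21.01, 31.6, 19.1 and 24.7 FPKM. Gar1, of the box H/ACA particles, was at 5.05, 7.70, 5.27 and 7.87 FPKM. Myc, which activates genes of ribosome biogenesis, rose in both genotypes, at 3.84, 11.6, 2.26 and 9.10 FPKM with log2 ratios of 1.57 ± 0.16 and 1.96 ± 0.21. Mtor, at 6.76, 4.06, 6.70 and 6.35 FPKM, had a ratio of -0.72 ± 0.09 with IL-4 in the wild-type and -0.26 with the length trend removed, at a length of 8612 bases. Larp1, also long at 6617 bases, was at 27.8, 19.3, 27.5 and 28.5 FPKM. No difference between these lists and the ribosomal protein genes was tested.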

How the data were processed

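RNA of 4 libraries, 1 per group, was sequenced on an Illumina HiSeq instrument. Mapping by the authors used Bowtie and the GRCm38 (mm10) build, and RSEM gave the value of each gene (versions, read length and strandedness not given in the sources used here). The deposited tables hold expected counts, which RSEM divides among genes where reads match several, FPKM values, which the authors scaled to effective length and sequencing depth, and the mean transcript length of each gene in bases. A gene absent from a table had no reads there and was given 0. Values of near-identical genes are uncertain. Symbols came from RefSeq (GRCm38.p6) by gene ID, and 38 of 16403 IDs had none.

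The members, lists and tests were chosen with earlier results of these data known. Log2 ratios are of FPKM + 0.1, which understates changes of low genes, and SEs are counting errors (reciprocals of counts + 0.5). Expected counts were rounded and compared per gene by two-sided Fisher's exact test with Benjamini-Hochberg adjustment, and called at an adjusted p under 0.05 and 1.5-fold. The additive fit used edgeR 4.0.16 (TMM, filterByExpr, quasi-likelihood) in R 4.3.3, with DESeq2 1.42.0 and limma 3.58.1 as alternatives. The length trend was a lowess curve (fraction 0.3), fitted for each library to genes of at least 200 bases and 1 FPKM. It followed the log2 deviation of each gene from its own mean over the 4 libraries against log2 length. Shared sequence was counted as 50-base stretches in GENCODE M21 transcripts, some of which differ in length from those deposited. The Fisher test and the additive edgeR fit were tested on simulated counts with a purely additive IL-4 effect and little spread between libraries. Such counts cannot show how the tests behave under variation between mice. Python 3.11.15 with SciPy 1.17.1 and statsmodels 0.14.6 was used.

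Named members were the 5 highest and 5 lowest by mean FPKM, the 3 highest and 3 lowest ratios of each pair, called members, the 3 with the widest range over libraries, and Rplp0, Rplp1, Rplp2, Rpl5, Rpl11, Rpsa, Rps6, Rps27a, Rps4x and Rpl22 for their roles. Values of some single genes are not reported here, although they enter the counts and medians.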

Additional observations from a re-analysis of the deposited data

Results flagged for a closer look

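Given here are 13 members in which IL-4 went with a ratio above 0 in the wild-type libraries and below 0 in the knockout libraries, with both 95% counting intervals clear of 0. They were picked by these same ratios, and the share of all genes that meet this rule is not given here. Members have high counts and so narrow counting intervals. The log2 ratio of the knockout minus that of the wild-type was -0.48 for Rpl31, -0.44 for Rps28, -0.43 for Rps14, -0.39 for Rps20 and -0.38 for Rps10. It was -0.26 for Rpl36, -0.26 for Rps26, -0.24 for Rpl37 and -0.22 for Rpl41. For Rpl10 and Rpl23a it was -0.20 each, for Rps7 -0.17 and for Rpl28 -0.14. With 1 library per group these differences between genotypes were not tested. Across the family the difference was below 0 in 69 of 76 members with a median of -0.15, and -0.03 with the length trend removed. Over all genes of at least 1 FPKM the median was 0.03 and 45.2% lay below 0. Rpl31, Rps28, Rps14, Rps20 and Rps10 kept ratios of opposite sign with the trend removed, and the other 8 of the 13 did not. This goes by sign alone, and the wild-type ratio of Rps14 was then 0.01 with a counting SE of 0.03. For Rpl31, Rps28, Rps14, Rps20 and Rps10 the difference with the trend removed was -0.36, -0.30, -0.29, -0.44 and -0.25.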

How the results depend on the processing

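No pairing of libraries by replicate was possible because each group held 1 library and the labels give no replicate numbers. For the same reason no library could be left out. The median ratio of members for IL-4 in the wild-type was 0.19 with TMM, 0.21 with upper-quartile scaling and 0.032 with the length trend removed, or 0.033 with the curve fitted without the members. For IL-4 in the knockout it was -0.0048 with upper-quartile scaling, and -0.0068 and -0.0074 with the trend removed by the curve on all genes and without the members. For genotype without IL-4 it was -0.041 with TMM, -0.014 and -0.016 with the 2 curves, -0.061 without members that had non-whole counts and -0.074 without those under 500 bases. For genotype with IL-4 it was -0.22 with TMM, -0.27 with upper-quartile scaling, and -0.053 and -0.057 with the 2 curves. A fold of 1.2 gave 5, 1, 3 and 19 called members in the 4 pairs. The call on Rpl30 was lost (0 called) in both genotype pairs at a fold of 2, with edgeR's exact test once variation between samples was assumed (coefficient 0.1 or 0.2), and with reads summed with Gm12191, and in the IL-4 pair with the trend removed. In the additive fit, DESeq2 and the trend as an offset each gave 1 member for IL-4 (Rps23 and Rps15a), against 1656 of 12245 and 3906 of 11791 genes. For the knockout, upper-quartile scaling gave 4 members against 494 of 11791 genes, and the trend as an offset 3 against 624 of 11791. With all genes with a read it was 0 against 24 of 16371. The share of reads without the 10 most abundant genes in the total was 3.90%, 4.29%, 3.72% and 3.65%, and the share of summed FPKM 8.85%, 9.60%, 8.66% and 8.79%. The curve without the members and the summed reads were chosen after seeing the data. Apart from the settings whose construction explains a change (a stricter or looser fold, summed reads), the cause was not tested. Members rest on 565 to 12825 expected counts, so that counting error was small beside any variation between mice, which these libraries cannot measure.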
